A study of Mus musculus with 8 samples.

Results

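The 10 genes described here belong to the dual-specificity phosphatase (DUSP) family. They were followed in RNA-seq libraries of immature myeloid cells from mice with or without a myeloid deletion of PARP1 or PARP2. The genes were Dusp1, Dusp2, Dusp3, Dusp4, Dusp5, Dusp6, Dusp7, Dusp10, Dusp16 and Dusp23, found by symbol among the 24062 genes counted. Each of the 10 was expressed enough to be among the 13197 genes tested. The members were selected on the measured fold changes of Dusp1, lower after one deletion, and Dusp23, higher after the other, so the values of both genes in those comparisons are a description and carry no p-value. In the PARP2 deletion, the higher level of Dusp23 was not called by edgeR's quasi-likelihood test, the main test here, or by DESeq2, and was called by edgeR's likelihood-ratio test and with no filter on low counts. These outcomes rest on the values that chose the set, so they too are only a description. In this deletion the main test called 0.0530% of all genes, and the likelihood-ratio test called 39 of the 13197.

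There were 4 groups of 2 libraries, all from C57BL/6 mice 2 months old. PARP1 WT mice were PARP1 flox/flox without Cre, and PARP1CKO mice were PARP1 flox/flox with lysozyme-Cre. PARP2 WT mice were PARP2 flox/flox without Cre, and PARP2CKO mice were PARP2 flox/flox with lysozyme-Cre. Each WT group thus carried the floxed gene of its own line, and neither WT group carried Cre, which is expressed throughout the myeloid lineage. Bone marrow cells of all groups were grown for 3 days in 40 ng/mL M-CSF, the growth factor that signals through the receptor Csf1r. The libraries are described as biological duplicates and nothing names the animals, so the errors given measure variation between libraries. The standard errors (SE) of fold changes come from a fit that pools the spread over all 4 groups and moderates it across genes. They are not the spread of the compared libraries alone. According to the methods of the study the WT mice were littermates of the CKO mice, and no label says which libraries come from the same litter.

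MAP kinases (ERK, JNK and p38) are switched on when a threonine and a tyrosine of their activation loop are phosphorylated, and MAP kinase phosphatases of the DUSP family switch them off by removing both phosphates. The typical members have an N-terminal domain that binds the kinase. Dusp1, Dusp2, Dusp4 and Dusp5 are nuclear and are induced by the signals they dampen, Dusp6 and Dusp7 are cytoplasmic and prefer ERK, and Dusp10 and Dusp16 prefer p38 and JNK. Dusp3 (VHR) and Dusp23 (VHZ) are small atypical members without the kinase-binding domain, and the name MAP kinase phosphatase fits Dusp23 least. In macrophages Dusp1 is known as an early brake on p38 and JNK after stimulation.

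The stretches of sequence upstream of Dusp1 and Dusp23 are shown because the set was built around these genes. Both are from RefSeq (GRCm38.p6), cover the 250 bases before the transcription start, are written 5′ to 3′ along the gene's strand, and have in capitals every match to the cyclic AMP response element (CRE) TGACGTCA or its half-site TGACG, which reads CGTCA when it lies on the other strand. The Dusp1 stretch is chr17:26508473-26508722 and the Dusp23 stretch is chr1:172632975-172633224, both on the minus strand.
Dusp1: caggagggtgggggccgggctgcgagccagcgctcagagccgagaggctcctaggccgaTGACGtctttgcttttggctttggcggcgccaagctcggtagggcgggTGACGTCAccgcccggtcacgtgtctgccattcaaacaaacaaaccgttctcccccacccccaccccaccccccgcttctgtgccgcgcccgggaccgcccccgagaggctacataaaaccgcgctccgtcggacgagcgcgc
Dusp23: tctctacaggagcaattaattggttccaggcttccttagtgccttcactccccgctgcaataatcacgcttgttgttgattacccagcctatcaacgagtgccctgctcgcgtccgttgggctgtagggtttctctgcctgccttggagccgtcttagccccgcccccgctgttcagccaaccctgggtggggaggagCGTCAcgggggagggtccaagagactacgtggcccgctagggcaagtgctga

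The Dusp1 stretch holds the full palindrome TGACGTCA with its first base at −143 from the start, a match found in 1.79% of 32851 RefSeq promoters of the same length (250 bases before to 50 after the start, both strands). It also holds a separate half-site at −191, and the half-sites at −143 and −140, the latter on the other strand, lie within the palindrome and overlap each other. Dusp23 has 1 half-site on the other strand at −52. A half-site was found in 5 of the 9 members with a promoter in the table, against 20.8% of all promoters. For comparison, the half-sites of Dusp5 (−55, other strand) and Dusp16 (−70, gene strand) are shown with their flanks.
Dusp5: tatgggcactcaCGTCAcaggacgcgcact
Dusp16: attggtttcaagTGACGccatctctttatt
Dusp2 also had a half-site, on the other strand just after the start, at position 6. These matches are descriptions of letters in a window, and binding was not measured.

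Depth was between 37852450 and 61845125 counts per library. The targeted genes followed the labels. Parp1 was at 202 and 211 CPM (counts of a gene scaled to the size of its library) in PARP1 WT and at 63.2 and 59.1 in PARP1CKO (log2 fold change −1.75, edgeR quasi-likelihood adjusted p = 0.0134), a call that was lost without either PARP1 WT library or without PARP1CKO replicate 2 (highest adjusted p = 0.0753). Parp2 was at 48.2 and 48.3 CPM in PARP2 WT and at 25.8 and 25.6 in PARP2CKO (−0.91, adjusted p = 0.000139). Parp1 also differed between the PARP2 WT replicates, at 251 and 155 CPM. Markers of monocytes and macrophages, among them Csf1r, Cd14 and Itgam, summed to between 3818 and 4385 CPM in every library, while neutrophil markers, 10 of the 11 listed being tested, summed to between 2746 and 3591 CPM. In bulk libraries such as these, fewer cells of a type and less RNA per cell cannot be told apart.

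To place the members beside one another, CPM was divided by the exon length of each gene, a scale on which levels of different genes can be compared. Averaged over the 8 libraries, Dusp3 was the most abundant member at 53.2 ± 3.16 CPM per kb (SD over 8 libraries). It was followed by the ERK phosphatases Dusp6 (35.6 ± 2.48) and Dusp7 (27.8 ± 2.11), and then by Dusp4 (22.0 ± 1.14). Dusp1 came next at 13.3 ± 4.20 CPM per kb and then Dusp23 at 7.54 ± 1.16. The remaining genes were low: Dusp16 at 2.49 ± 0.257, Dusp2 at 1.97 ± 0.220, Dusp10 at 1.59 ± 0.206 and Dusp5 at 1.01 ± 0.170 CPM per kb.

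Neighbours in this order were separate across all libraries, with 3 exceptions. Dusp1, with a lowest library of 6.57 CPM per kb in PARP1CKO, overlapped Dusp23, with a highest library of 8.55. Dusp16 (2.15 to 2.85) overlapped Dusp2 (1.68 to 2.24), and Dusp2 overlapped Dusp10 (1.41 to 2.04). The place of Dusp1 depends on the length used, because its annotated gene, chr17:26505590-26562128, reaches far upstream of the RefSeq start. With the length of the principal transcript in place of all exons, Dusp1 was at 22.2 CPM per kb and Dusp4 at 22.0, and the pair changed places.

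**Figure D1:**
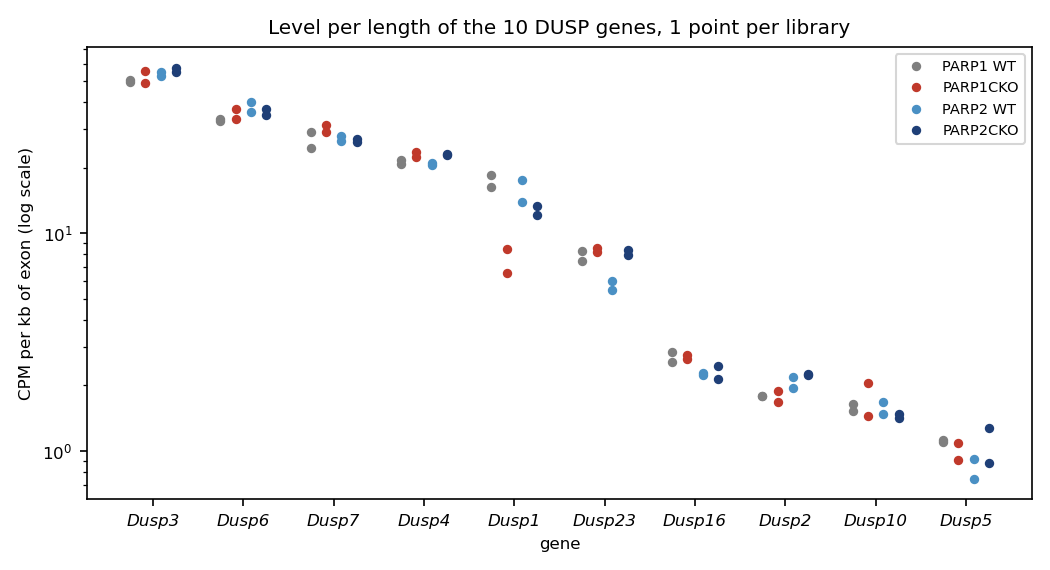
Level of each DUSP gene in CPM per kb of exon (vertical axis, log scale), with 1 point for each of the 8 libraries coloured by group and genes ordered by their mean. Dusp3, Dusp6, Dusp7 and Dusp4 lie above 20 CPM per kb in every library, and the PARP1CKO points of Dusp1 (6.57 and 8.49) drop to the level of Dusp23.

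Which members differed after either deletion was asked first of the inducible nuclear phosphatases. Dusp1 was at 61.0 and 54.2 CPM in PARP1 WT and at 28.1 and 21.8 CPM in PARP1CKO. In PARP2 WT it was at 45.9 and 57.9 CPM, and in PARP2CKO at 44.2 and 40.1 CPM. The PARP1CKO libraries were the lowest of all 8, at 0.43 of the PARP1 WT level (log2 fold change −1.20, SE 0.137). Both PARP2CKO libraries also lay below both PARP2 WT libraries, by a smaller step (log2 fold change −0.30, SE 0.131). The difference between the effects was 0.90 on the log2 scale (SE 0.189).

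Single libraries moved these values. The PARP1CKO replicates differed 1.29-fold from each other and the PARP2 WT replicates 1.26-fold. Without each library in turn, the log2 fold change of Dusp1 in PARP1CKO lay between −1.40 (without PARP1CKO replicate 1) and −1.03 (without PARP1CKO replicate 2), and that in PARP2CKO between −0.46 and −0.12. Dusp1 rests on at least 984 counts in every library, so counting error is small beside these spreads. Its annotated gene overlaps Ergic1 on the opposite strand, and it is not stated whether counting used the strand. Ergic1 was at 148 and 161 CPM in PARP1 WT and at 161 and 143 CPM in PARP1CKO, with overlapping groups.

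The summed level of red cell markers was higher in both PARP1CKO libraries, where Dusp1 was lower, without a call by the main test. The erythroid markers summed to 8.27 and 10.1 CPM there, against 5.95 and 4.98 CPM in PARP1 WT, and the globin genes Hba-a1 and Hba-a2 were each at 3.11 and 3.83 against 1.99 and 1.77 CPM (log2 fold change 0.88, SE 0.175, edgeR quasi-likelihood adjusted p = 0.156). Of the 5 erythroid markers tested, 3 were higher in both libraries, against 41.2% of all genes not overlapping in either direction. None was called by the quasi-likelihood test or DESeq2, and 2 had an unadjusted p under 0.05, against 11.3% of all genes. The likelihood-ratio test called the 2 globin genes. Hba-a1 and Hba-a2 are near-identical copies with the same count in every library, so they are 1 measurement and not 2. This measurement enters the sums and counts of erythroid markers 2 times. It makes up most of the sums in PARP1 WT and PARP1CKO, and both unadjusted p under 0.05 in PARP1CKO are from it. In PARP2CKO the erythroid markers summed to 2.05 and 2.15 CPM, against 2.65 and 2.48 CPM in PARP2 WT. Of the 5, 4 were lower and 1 was higher in both libraries, against 37.2% of all genes not overlapping in either direction, 1 had an unadjusted p under 0.05, against 4.83%, and none was called by any of the 3 tests. None of the 4 B cell markers or the 5 basophil and mast cell markers was called in either deletion by any of the 3 tests, and at most 1 of a list had an unadjusted p under 0.05. Basophil and mast cell markers summed to 6.42 and 8.70 CPM in PARP2CKO, against 9.06 and 10.6 CPM in PARP2 WT, with 3 of the 5 lower in both libraries. In PARP2CKO, 6 of the 10 neutrophil markers tested were lower in both libraries, where 37.2% of all genes did not overlap in either direction, and 2 had an unadjusted p under 0.05, against 4.83% of all genes, with 0 called by the quasi-likelihood test and 1 (Retnlg) by each of the other tests. The part of these cells in the values of the DUSP genes was not tested.

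Dusp4, the nuclear phosphatase of ERK and JNK at chr8:34807297-34819894, varied least of the members, with a coefficient of variation of 5.17% over the 8 libraries. It was at 59.8 and 57.2 CPM in PARP1 WT and at 64.5 and 61.6 CPM in PARP1CKO. In PARP2 WT it was at 57.3 and 56.3 CPM, and in PARP2CKO at 62.7 and 63.2 CPM. Both CKO groups lay above both WT groups without overlap, by 0.11 (SE 0.042) for PARP1CKO and 0.15 (SE 0.042) for PARP2CKO on the log2 scale. Neither step was called (edgeR quasi-likelihood adjusted p = 0.391 and 0.84). Of all genes, 41.2% in PARP1CKO and 37.2% in PARP2CKO had groups that did not overlap, in either direction. The step kept its sign without each library in turn, at 0.07 to 0.14 and 0.14 to 0.16.

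Dusp2, at chr2:127336159-127338376 and known from activated leukocytes, was low. Its 2 libraries were at 3.57 and 3.59 CPM in PARP1 WT and 3.37 and 3.78 in PARP1CKO, then at 3.91 and 4.36 in PARP2 WT against 4.49 and 4.45 in PARP2CKO. The PARP1 groups overlapped, and the PARP2CKO libraries lay just above the PARP2 WT libraries (log2 fold change 0.11, SE 0.116). Dusp5, an ERK-selective phosphatase at chr19:53529109-53542431, was the lowest member, at 2.71 and 2.78 CPM in PARP1 WT with 2.70 and 2.26 in PARP1CKO, and at 2.27 and 1.85 in PARP2 WT with 3.15 and 2.17 in PARP2CKO. Its PARP1CKO libraries lay just below those of PARP1 WT (−0.15, SE 0.207), while the PARP2 groups overlapped (0.38, SE 0.204). PARP2CKO replicate 1 decided the latter value, which was 0.08 without it and 0.61 without PARP2CKO replicate 2.

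**Figure D2:**
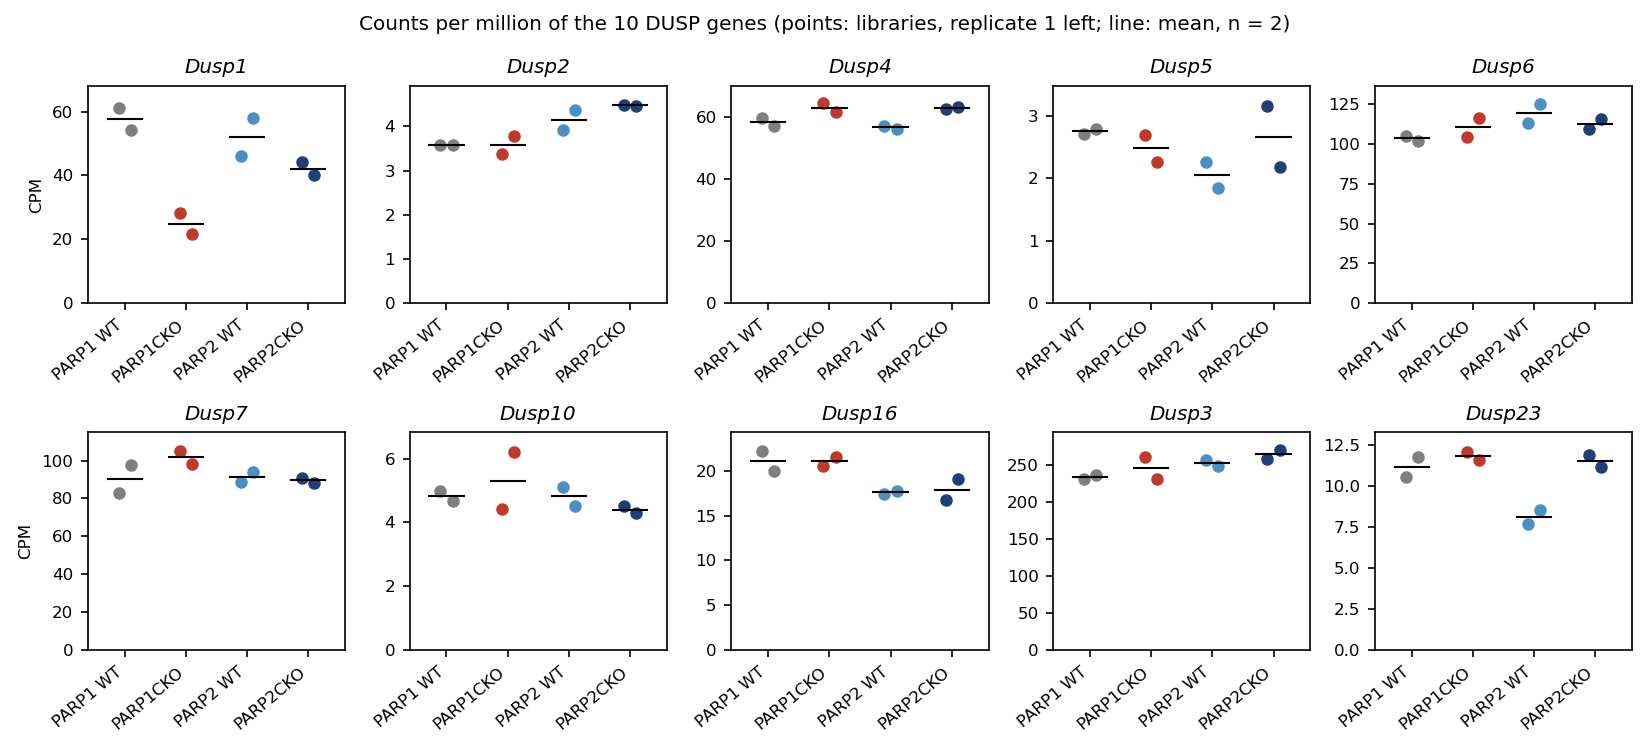
CPM of the 10 DUSP genes (vertical axes, each from 0), with 1 point per library, replicate 1 on the left, and a line at the mean of the 2 libraries of each group. Dusp1 is lowest in PARP1CKO (28.1 and 21.8 CPM) and Dusp23 is lowest in PARP2 WT (7.70 and 8.53 CPM), while the other genes vary less between groups.

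The cytoplasmic ERK phosphatases showed small steps. Dusp6, the feedback phosphatase of ERK at chr10:99263231-99267489, was at 105 and 102 CPM in PARP1 WT with 105 and 117 in PARP1CKO, and at 113 and 125 in PARP2 WT with 109 and 116 in PARP2CKO. Its groups overlapped in both deletions, with log2 fold changes of 0.09 (SE 0.066) and −0.08 (SE 0.065). Dusp7, at chr9:106368632-106375724, was at 82.7 and 97.6 CPM in PARP1 WT with 105 and 98.1 in PARP1CKO, and at 88.6 and 94.0 in PARP2 WT with 91.0 and 88.0 in PARP2CKO. Its PARP1CKO libraries lay just above the PARP1 WT libraries (0.17, SE 0.074), by a step that was 0.06 without PARP1 WT replicate 1 and 0.29 without PARP1 WT replicate 2. The PARP2 groups overlapped (−0.03, SE 0.074).

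The p38 and JNK phosphatases did not separate by deletion. Dusp10, on chromosome 1 (chr1:184013302-184075636) like Parp1, was at 4.99 and 4.66 CPM in PARP1 WT with 4.40 and 6.22 in PARP1CKO, and at 5.12 and 4.50 in PARP2 WT with 4.51 and 4.29 in PARP2CKO. Its log2 fold change of 0.14 (SE 0.163) in PARP1CKO turned to −0.13 without PARP1CKO replicate 2, and in PARP2CKO it was −0.13 (SE 0.161). Of the 7 tested genes that start within 1 Mb of Dusp10, none was called in PARP1CKO by edgeR's quasi-likelihood test, by its likelihood-ratio test or by DESeq2, against 0.106% of all genes by the first, and 1 had an unadjusted p under 0.05, against 11.3% of all genes. Its annotated gene overlaps 1700056E22Rik on the opposite strand.

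Dusp16, at chr6:134715468-134792625, was at 22.2 and 20.0 CPM in PARP1 WT with 20.6 and 21.6 in PARP1CKO, and at 17.5 and 17.7 in PARP2 WT with 16.8 and 19.1 in PARP2CKO. Groups overlapped within each line, with log2 fold changes near 0 (−0.00068, SE 0.080, and 0.02, SE 0.080). Every library of the PARP1 line lay above every library of the PARP2 line. How many of all genes separate by line in this way was not counted. Between the WT groups alone, 51.9% of all genes did not overlap.

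Of the atypical members, Dusp3, at chr11:101971143-101987013, was at 232 and 237 CPM in PARP1 WT with 260 and 230 in PARP1CKO, and at 257 and 248 in PARP2 WT with 258 and 270 in PARP2CKO. The PARP1 groups overlapped (0.07, SE 0.059), and the PARP2CKO libraries lay above the PARP2 WT libraries by 0.06 on the log2 scale (SE 0.059), a gap of about 1 CPM between the nearest libraries. Dusp23, at chr1:172630764-172632962, was at 10.5 and 11.7 CPM in PARP1 WT and at 12.1 and 11.5 CPM in PARP1CKO. In PARP2 WT it was at 7.70 and 8.53 CPM, and in PARP2CKO at 11.9 and 11.1 CPM.

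The Dusp23 libraries that stood apart were those of PARP2 WT, which lay below the other 6. PARP2CKO lay near PARP1 WT and PARP1CKO, so its log2 fold change of 0.50 against PARP2 WT (SE 0.088) was close in size to the −0.46 (SE 0.090) between the WT groups. These comparisons share the PARP2 WT libraries and are not independent. The effect in PARP1CKO was 0.08 (SE 0.088), and the difference between the effects was 0.42 (SE 0.125). Without each library in turn the PARP2CKO value lay between 0.43 and 0.58. Each library held at least 407 counts of Dusp23.

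**Figure D3:**
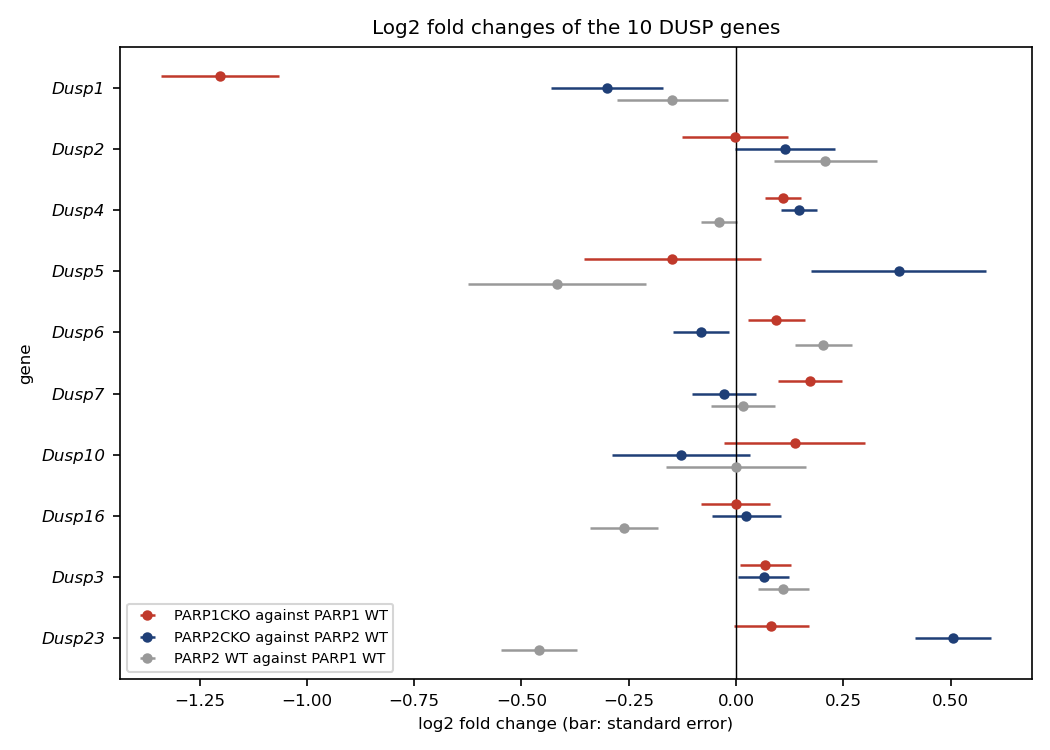
Log2 fold changes (horizontal axis) of the 10 DUSP genes with their standard errors, for each CKO group relative to its WT group and for the WT groups relative to each other. Dusp1 stands apart in PARP1CKO at −1.20, and Dusp23 lies at 0.50 in PARP2CKO and at −0.46 between the WT groups, with the other effects of the deletions between −0.15 and 0.38 apart from Dusp1 in PARP2CKO at −0.30.

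In numbers, 1 of the 10 members (Dusp1) was called in PARP1CKO at an adjusted p under 0.05, against 0.106% of all 13197 genes tested, and the fold change median was 0.08 for the members and 0.01 for all genes on the log2 scale. The call was lost without either PARP1 WT library or without PARP1CKO replicate 2. The count follows from how the set was chosen and says nothing about the family. In this deletion 3 members had an unadjusted p under 0.05, against 11.3% of all genes. The likelihood-ratio test and DESeq2 each called 1 (Dusp1). In PARP2CKO none was called by edgeR's quasi-likelihood test, against 0.0530% of all genes. There, 3 members had an unadjusted p under 0.05, against 4.83% of all genes, DESeq2 called 0 and the likelihood-ratio test called 1, and the median was 0.04 against −0.0014 for all genes. Groups did not overlap for 4 members in PARP1CKO, against 41.2% of all genes, and for 5 in PARP2CKO, against 37.2%. In the difference between the effects, none of the 10 was called by the quasi-likelihood test (0.0152% of all genes), 2 had an unadjusted p under 0.05 (7.69% of all genes), and each of the other tests called 1. These counts include Dusp1 and Dusp23, whose values chose the set, and nothing is read from them.

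Whether the WT groups of the floxed lines differ in these phosphatases bears on how far values may be compared across lines. The choice of members did not use the other 8 genes here, and they could be tested. None of the 8 was called by edgeR's quasi-likelihood test, by its likelihood-ratio test or by DESeq2, against 3.16% of all genes, and 2 had an unadjusted p under 0.05, against 18.9% of all genes. Groups did not overlap for 5 of the 8, against 51.9% of all genes. Dusp6 was higher in both PARP2 WT libraries than in both PARP1 WT libraries (log2 fold change 0.20, SE 0.066, edgeR quasi-likelihood adjusted p = 0.145), and Dusp16 was lower in both (−0.26, SE 0.080, edgeR adjusted p = 0.129). The remaining 6 genes had edgeR adjusted p between 0.323 and 0.999. Dusp1 was at −0.15 (SE 0.130) with overlapping groups, and the value was 0.01 without PARP2 WT replicate 1.

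Beside this comparison stands a difference in other cells. All 4 B cell markers tested were lower in PARP2 WT than in PARP1 WT, with a summed level of 8.75 to 10.4 CPM against 26.5 to 31.0 CPM. Erythroid markers summed to 2.48 to 2.65 CPM against 4.98 to 5.95 CPM. All 5 tested had a log2 fold change below 0, 4 were lower in both libraries, and 2 were called, the globin genes Hba-a1 and Hba-a2, which have the same values and may share reads. The pair is 1 measurement that enters the sum and these counts 2 times. Basophil and mast cell markers summed to 9.06 to 10.6 CPM against 15.6 to 18.1 CPM, with all 5 lower in both PARP2 WT libraries and at an unadjusted p under 0.05, and 0 called by the quasi-likelihood test, 4 by the likelihood-ratio test and 2 by DESeq2. Neutrophil markers went both ways, with 5 of the 10 tested higher and 2 lower in both PARP2 WT libraries, against 51.9% of all genes not overlapping in either direction. Of these, 2 were called by the quasi-likelihood test, Elane (0.42, adjusted p = 0.0269) and Retnlg (−0.79, adjusted p = 0.00924), and 5 by each of the other tests. The Elane call was lost without PARP1 WT replicate 1, without either PARP2 WT library and with library size alone as the scaling, that of Retnlg without PARP1 WT replicate 1, and that of the globin genes without PARP1 WT replicate 1 or either PARP2 WT library. The part of these cells in the values of Dusp6, Dusp16 and Dusp23 was not tested.

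Across the other genes of the family, 13 of 18 listed passed the filter. None was called in either deletion, between the WT groups or in the difference between the effects, by edgeR's quasi-likelihood test, its likelihood-ratio test or DESeq2, and those with an unadjusted p under 0.05 were 0 of the 13 in PARP1CKO (11.3% of all genes), 1 in PARP2CKO (4.83%), 1 between the WT groups (18.9%) and 2 in the difference (7.69%). The typical phosphatases Dusp8 (0.486 to 0.951 CPM) and Dusp9 (2.46 to 4.06 CPM) were expressed at low levels, whereas Dusp11, an RNA phosphatase of the family, was at 142 to 150 CPM. Dusp21 and Dusp26 were at 0 counts in all 8 libraries.

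The kinases on which these phosphatases act were measured in the same libraries. Mapk3 (ERK1) was at 170 to 190 CPM, Mapk8 (JNK1) at 16.9 to 21.4 CPM, Mapk9 (JNK2) at 60.3 to 66.1 CPM and Mapk14 (p38α) at 152 to 159 CPM. None of these genes was called in any comparison by the quasi-likelihood test. From RAS to the kinases below ERK and p38, a list of 62 genes of the cascade, 56 of them tested, gave 0 calls in PARP1CKO with 7 unadjusted p under 0.05, against 11.3% of all genes. There the likelihood-ratio test called Mapk7 and Spry4, and DESeq2 called 0. In PARP2CKO there were 0 calls by all 3 tests and no unadjusted p under 0.05 in the quasi-likelihood test. The median log2 fold change of the list was 0.02 in PARP1CKO and −0.02 in PARP2CKO, against 0.01 and −0.0014 for all genes.

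Between the WT groups 1 of the 56 cascade genes tested, Spry4, was called by the quasi-likelihood test, against 3.16% of all genes, and by DESeq2, 2 (Spry4 and Ptpn7) were called by the likelihood-ratio test, and 16 had an unadjusted p under 0.05, against 18.9%. Spry4, a feedback inhibitor of receptor tyrosine kinase signalling to ERK, was at 0.827 and 0.867 CPM in PARP1 WT and at 1.82 and 1.86 CPM in PARP2 WT (log2 fold change 1.11, SE 0.171, edgeR quasi-likelihood adjusted p = 0.0124). The call was lost without any one of these 4 libraries, at adjusted p up to 0.0992. PARP1CKO, at 1.59 and 1.46 CPM, lay above PARP1 WT without passing the test (0.84, SE 0.177, edgeR adjusted p = 0.172). Mapk7 (ERK5) was at 58.3 and 59.8 CPM in PARP1 WT and at 67.2 and 69.6 CPM in PARP1CKO (0.21, SE 0.047, edgeR adjusted p = 0.196), and its effects in the deletions differed by −0.31 (SE 0.066, edgeR adjusted p = 0.285). Ptpn7, a tyrosine phosphatase of ERK and p38 in blood cells, was at −0.16 (SE 0.041) between the WT groups with an edgeR adjusted p of 0.0770.

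Others among the smallest p of a comparison were the MAP kinase kinase Map2k2 (0.14 in PARP1CKO, 0.09 in PARP2CKO and 0.16 between the WT groups on the log2 scale), the scaffold Ksr1 (0.31 in PARP1CKO) and the p38 activator Map2k3 (0.10 in PARP2CKO). The kinase Map3k1 (−0.06 in PARP2CKO) and the downstream kinase Rps6ka4 (0.17 between the WT groups) belonged to the same group. None of these passed the test, with edgeR adjusted p of 0.109 or more.

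For Dusp1, the genes with the most similar pattern were sought by Pearson correlation of log2 CPM over the 8 libraries, a description to which depth and the 2 low PARP1CKO libraries contribute. The closest were Fos (r = 0.986), Rgs1 (0.985), Mrpl18 (0.968), Klf6 (0.956) and Mtap (0.953). Fos, a subunit of the transcription factor AP-1, was at 173 and 147 CPM in PARP1 WT and at 69.7 and 47.1 CPM in PARP1CKO. It was at 135 and 186 CPM in PARP2 WT and at 129 and 126 CPM in PARP2CKO. Rgs1, a regulator of G protein signalling, was at 144 and 115 CPM in PARP1 WT and at 69.2 and 52.8 CPM in PARP1CKO. Mrpl18 and Mtap moved far less (−0.12 and −0.14 in PARP1CKO on the log2 scale), so a close correlation did not mean a like size of effect. No other member of the DUSP set was near Dusp1 in this order, with r from −0.64 (Dusp4) to 0.217 (Dusp2).

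Fos belongs to the immediate early genes, which are transcribed within minutes of a stimulus from ERK, JNK or p38, as Dusp1 is. The 18 early response genes were listed with earlier results of these data known. Fos and Klf6 resemble Dusp1, whose fall helped choose the set, so tests of the list in PARP1CKO are not independent of that choice. Of the 18, 14 had a log2 fold change below 0 in PARP1CKO. An unadjusted p under 0.05 was found for 7, against 11.3% of all genes, and 1 was called, against 0.106%. Of the 7, 6 were lower and 1, Jund, was higher in PARP1CKO (0.32, SE 0.094, edgeR adjusted p = 0.287). The called gene was Fos (−1.45, SE 0.188, edgeR quasi-likelihood adjusted p = 0.0355), and the call was lost without either PARP1 WT library, without PARP1CKO replicate 2 or without either PARP2CKO library (highest adjusted p = 0.166), and with the replicate block or the 4 libraries of the comparison alone (highest 0.0718). The likelihood-ratio test and DESeq2 each called 5 of the list, Egr1, Fos, Fosb, Klf6 and Zfp36. Egr1 was at 72.5 and 51.7 CPM in PARP1 WT and at 14.4 and 7.17 CPM in PARP1CKO (−2.51, edgeR quasi-likelihood adjusted p = 0.0597). Zfp36, whose protein promotes decay of cytokine messages, was at 211 and 204 CPM in PARP1 WT and at 174 and 148 CPM in PARP1CKO (−0.37, edgeR quasi-likelihood adjusted p = 0.176).

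In PARP2CKO none of the early response genes was called by the quasi-likelihood test. There, 4 of the 18 had an unadjusted p under 0.05, against 4.83% of all genes, the likelihood-ratio test called Egr1 and DESeq2 called Fosb. Egr1 was at 41.0 and 79.1 CPM in PARP2 WT and at 17.5 and 22.6 CPM in PARP2CKO. The replicates of PARP2 WT thus differed in Egr1 in the same direction as in Dusp1 and Fos. Between the WT groups Egr2 was called, at 4.60 and 4.68 CPM in PARP1 WT against 10.9 and 11.2 CPM in PARP2 WT (1.25, edgeR adjusted p = 0.00159), as it was by the other tests, and the likelihood-ratio test also called Ier3.

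**Figure D4:**
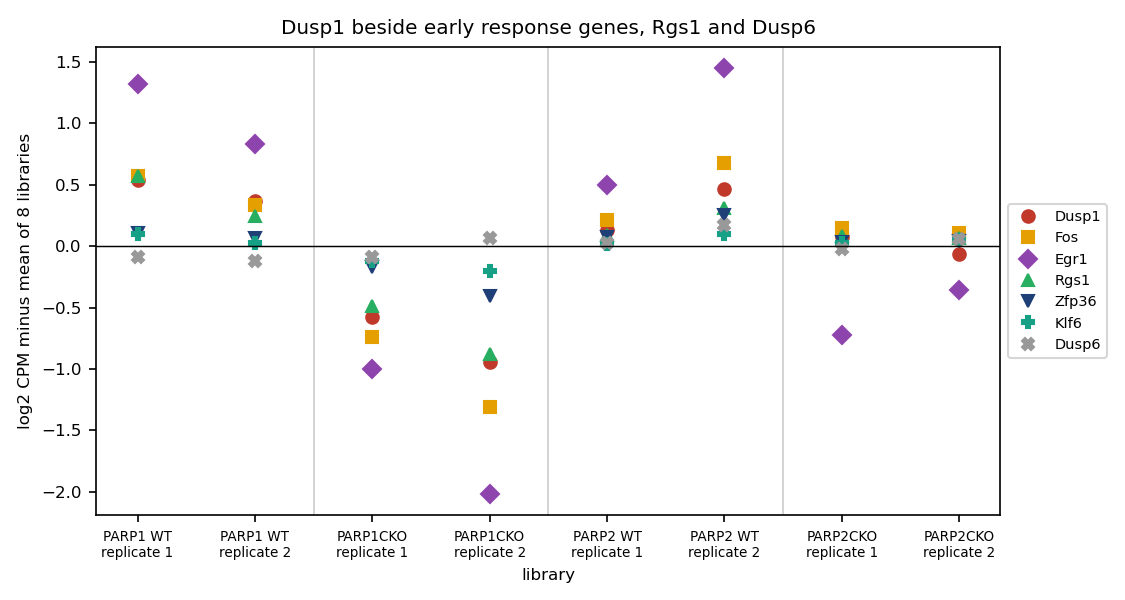
Log2 CPM of Dusp1, Fos, Egr1, Rgs1, Zfp36, Klf6 and Dusp6 in each library minus the gene's mean over the 8 libraries (vertical axis). All but Dusp6 lie below their mean in both PARP1CKO libraries, and Dusp6, an ERK-induced phosphatase, stays between 102 and 125 CPM throughout.

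In PARP1CKO no gene near Dusp1 passed the test. Distances were taken from the start of its annotated gene, far upstream of the RefSeq start, and the window of 1 Mb is shifted the same way. Of 44 tested genes that start within 1 Mb of Dusp1, none was called by the quasi-likelihood test, the likelihood-ratio test or DESeq2, against 0.106% of all genes by the first, 3 had an unadjusted p under 0.05, against 11.3% of all genes, and the median log2 fold change was 0.01. Between the WT groups 1 of the 44 was called by the quasi-likelihood test, against 3.16% of all genes, 4 by the likelihood-ratio test and 2 by DESeq2, and 9 had an unadjusted p under 0.05, against 18.9%. The called gene was Atp6v0e, a subunit of the vacuolar proton pump, 101 kb from the annotated start of Dusp1 and farther from the RefSeq start. It was at 115 and 118 CPM in PARP1 WT and at 136 and 140 CPM in PARP2 WT (0.24, SE 0.038, edgeR quasi-likelihood adjusted p = 0.0134). Its call was lost without PARP1 WT replicate 1 or without either PARP2 WT library (highest adjusted p = 0.114).

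Around Dusp23 the picture was another one. Of 23 tested genes that start within 1 Mb, 12 had an unadjusted p under 0.05 in PARP2CKO, against 4.83% of all genes, and 22 had groups that did not overlap, 14 higher and 8 lower in PARP2CKO, against 37.2% of all genes. One was called, Slamf7, a receptor of the SLAM family, at 94.0 and 88.8 CPM in PARP2 WT and at 139 and 132 CPM in PARP2CKO (0.57, SE 0.054, edgeR quasi-likelihood adjusted p = 0.00828). The call was lost without PARP2CKO replicate 1 (adjusted p = 0.0789). The likelihood-ratio test called 3 (Slamf7, Cd84 and Kcnj10) and DESeq2 called 2 (Slamf7 and Cd84). The count of 12 fell to 8 without either PARP2 WT library or without PARP2CKO replicate 1 and to 9 without PARP2CKO replicate 2, and was between 10 and 13 under the other settings tried.

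As with Dusp23, the PARP2 WT libraries stood apart for many of these neighbours. In 13 of the 23 both PARP2 WT libraries lay outside the range of the other 6 libraries, 9 below and 4 above, or 56.5%, against 5.40% of all genes tested and 11.4% of the genes near Dusp1. Between the WT groups 5 neighbours were called by the quasi-likelihood test, against 3.16% of all genes, 8 by the likelihood-ratio test and 6 by DESeq2. Slamf7 (−0.43), Cd48 (−0.29) and Slamf9 (−0.70) were lower in PARP2 WT, and Igsf8 (0.76) and the potassium channel Kcnj10 (1.77) were higher. Slamf7 and Igsf8 remained called without each library in turn, whereas Cd48, Kcnj10 and Slamf9 did not (highest edgeR adjusted p = 0.136). In PARP1CKO none of the 23 was called by any of the 3 tests, 2 had an unadjusted p under 0.05, against 11.3% of all genes, and 10 had groups that did not overlap, against 41.2%.

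The gene with the pattern most like that of Dusp23 was one of these neighbours. Ncstn, a subunit of γ-secretase, had a Pearson r of 0.957 over the 8 libraries and was at 163 and 166 CPM in PARP1 WT with 166 and 171 in PARP1CKO, and at 147 and 146 in PARP2 WT with 167 and 165 in PARP2CKO. Next were Clip1 (0.940), Ugt1a6a (0.930), Pkd1l2 (0.929) and Tonsl (0.929), on chromosomes 5, 1, 8 and 15. Within the DUSP set, Dusp4 (0.701) was nearest to Dusp23 and Dusp6 (−0.54) farthest, and Dusp1 was at −0.42. The PARP2 WT libraries thus stood apart both for Dusp23 and for many genes around it, and the part of this region in the value of Dusp23 was not tested.

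**Figure D5:**
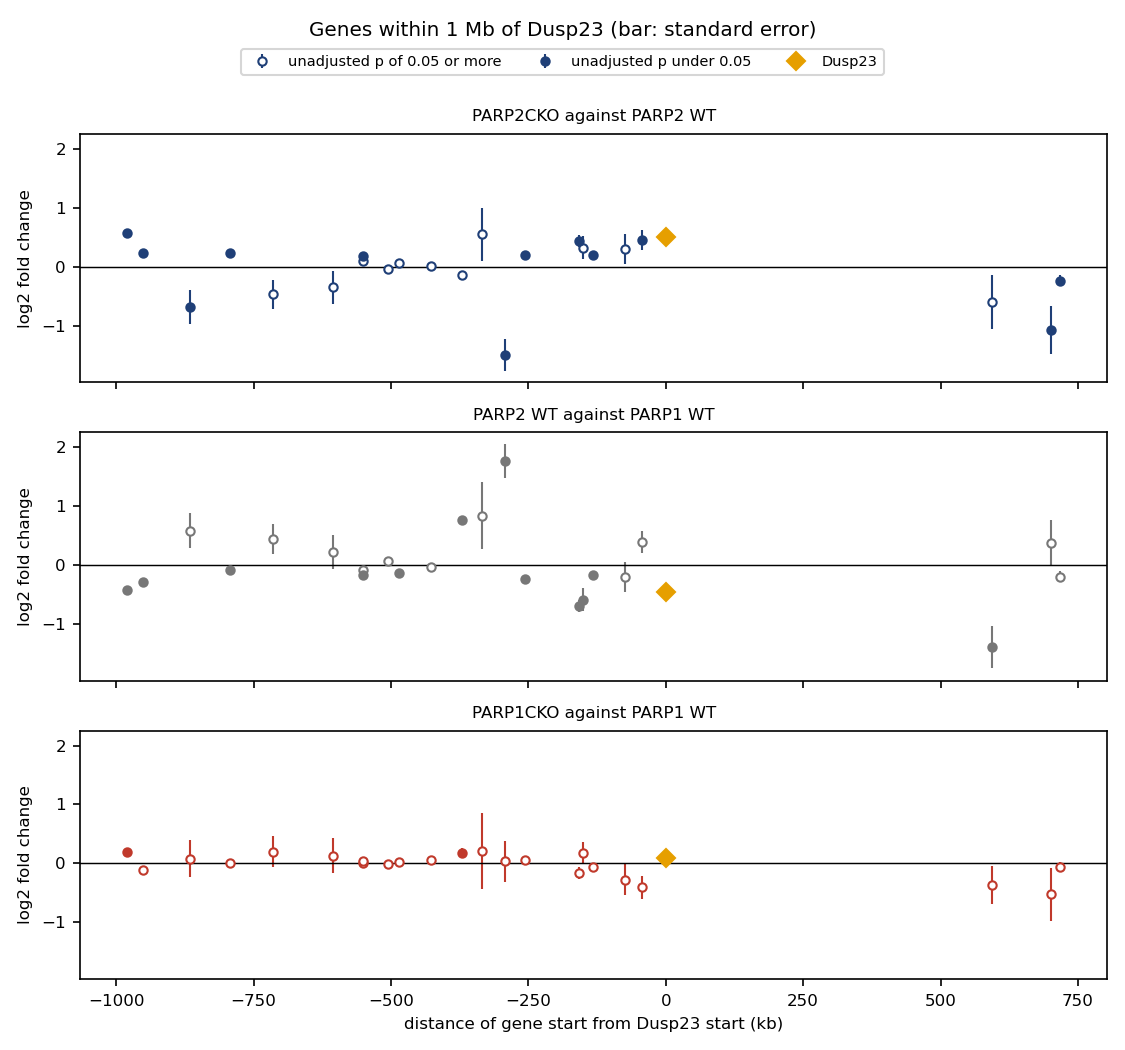
Log2 fold change with its standard error (vertical axis) of the 23 tested genes within 1 Mb of Dusp23 against the distance of their start from that of Dusp23 in kb (horizontal axis, lower coordinates negative), in 3 comparisons, with Dusp23 as a diamond. Filled points have an unadjusted p under 0.05, which holds for 12 genes in PARP2CKO, 12 between the WT groups and 2 in PARP1CKO.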

How the data were processed

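The authors trimmed single-end reads with fastq-mcf, mapped them to mm10 with TopHat 2.0.12, marked duplicates with Picard 1.127 and counted reads per gene with featureCounts. The deposited values are raw counts. The annotation, the strand setting and the use of marked duplicates are not given in the sources used here. No column lay outside the 8 libraries. Of 24062 genes, 6520 had no count, and 13197 passed filterByExpr. Libraries were scaled by TMM in edgeR 4.0.16 (R 4.3.3, limma 3.58.1), and CPM use these factors.

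Group means were fitted to the 8 libraries together and compared with the quasi-likelihood F-test of edgeR, with Benjamini-Hochberg adjustment over all genes tested and a threshold of 0.05. Alternatives were DESeq2 1.42.0, the likelihood-ratio test, other scalings and filters, fits of 4 libraries, a replicate block and leaving out each library. The fits were tested on simulated data. The common biological coefficient of variation was 0.055, and replicates differed by more than sampling noise (chi-square per gene 8.55 to 12.9), so each library counted as 1 replicate. Exact permutation of 2 against 2 libraries cannot go below p = 0.333.

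The members and gene lists were chosen with earlier results of these data known. Named were all members, Parp1, Parp2, cascade genes called or with the 4 smallest p of a comparison, main kinase substrates (1 gene of the rule is not reported here), Fos, Egr1 and Zfp36, the 5 genes most like Dusp1 and Dusp23 (log2 CPM, prior count of 2), and called genes within 1 Mb. Other genes were named after their values were seen. Lengths and positions are from GENCODE M21 and promoters from RefSeq, both GRCm38. Distances between genes run between their GENCODE starts.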

Additional observations from a re-analysis of the deposited data

How the results depend on the processing

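The log2 fold changes of Dusp1 in PARP1CKO (−1.21 to −1.20) and of Dusp23 in PARP2CKO (0.48 to 0.51) hardly moved with the scaling, filter or tool, and moved when single libraries were left out (−1.40 to −1.03 and 0.43 to 0.58). Counts of calls moved more. Over all genes, the 14 calls in PARP1CKO became 101 with no filter on low counts, 146 with the likelihood-ratio test and 86 with DESeq2, and 1 to 34 when a library was left out. The 7 in PARP2CKO became 26, 39 and 27 in the same order, and 4 to 19. The 417 between the WT groups became 872 with no filter and 910 with the likelihood-ratio test, and 85 to 566. The 2 in the difference between the effects became 61, 72 and 45, and 1 to 16.

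Among the members, 0 to 1 were called in PARP1CKO when a library was left out, and Dusp1 was lost without either PARP1 WT library or PARP1CKO replicate 2. Dusp23 was the 1 member called in PARP2CKO with no filter and with the likelihood-ratio test. Between the WT groups the number called was 0 with the replicate block and with the 4 libraries of the comparison, and 0 to 1 without a library. In the difference between the effects, 1 (Dusp1) was called with no filter, the likelihood-ratio test and DESeq2. From the cascade list, the likelihood-ratio test called 2 in PARP1CKO and 1 in the difference, and between the WT groups 2 were called with library size alone and with that test (Spry4 and Ptpn7), and 0 to 1 without a library. The genes near Dusp23 with an unadjusted p under 0.05 in PARP2CKO were 8 to 12 without a library.

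Between the WT groups, uncalled values of Dusp1, Dusp7 and Dusp10 turned sign. Dusp1 (−0.15) was at 0.01 without PARP2 WT replicate 1. Dusp7 (0.02) was at −0.022 with library size alone, −0.10 without PARP1 WT replicate 1 and −0.029 without PARP2 WT replicate 2, and at most 0.141 without a library. Dusp10 (−0.00051) was at 0.0030 with no filter, 0.000776 with the replicate block, 0.047 without PARP1 WT replicate 1 and 0.087 without PARP2 WT replicate 2. Within the deletions, uncalled values also turned sign when a library was left out. Among them, Dusp3 in PARP1CKO (0.07) was at −0.024 without PARP1CKO replicate 1. Dusp7 in PARP2CKO (−0.03) was at 0.017 without PARP2 WT replicate 2. The cause of these changes was not tested. Same-numbered libraries correlated in their deviations by −0.133 (PARP1 WT and PARP1CKO) to 0.147 (PARP2 WT and PARP2CKO), so the numbers were not taken to pair them. With a replicate block 14, 6, 315 and 3 genes were called in the 4 comparisons. With the PARP1CKO numbers crossed, a setting chosen after seeing the data, the counts were 18, 7, 378 and 2. A fit of 4 libraries could not be had for the difference. Dusp5, with 1.85 to 3.15 CPM, is the member most limited by depth.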
